A study of Mus musculus with 9 samples.

Results

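The 7 genes described here are *Cxcl9*, *Cxcl10* (also called *Ip-10*), *Cxcl11*, *Cxcl12*, *Cxcl14*, *Cxcl16* and *Cx3cl1*, the chemokines induced by interferon, the homeostatic CXC chemokines and the 2 chemokines made as membrane proteins. They were taken as the probe sets annotated to each gene symbol alone, and all 7 were found, each with 1 probe set, of 19938 genes with a probe set of their own. The RNA came from mouse 3T3 fibroblasts, an immortalised line of embryonic origin, in 3 groups of 3 arrays. Trap-80 knock-down cells were given 5 ng/ml TNF-α for 1 h, wild-type cells were given the same treatment, and wild-type cells were left unstimulated. Trap-80, encoded by *Med17*, is a subunit of the Mediator complex, which links transcription factors such as NF-κB to pol-II, and the comparisons ask how transcripts behave when it is depleted. The knock-down cells were a clonal line that stably expressed an shRNA against *Trap-80*, and the cells called wild type expressed an irrelevant shRNA. Unstimulated knock-down cells are not analysed here, and a difference already present at rest cannot be told apart from a difference in the response. Nor can the clone be told apart from the knock-down.

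Chemokines are small secreted proteins that guide cells through G protein-coupled receptors. *Cxcl9*, *Cxcl10* and *Cxcl11* encode the ligands of Cxcr3, a receptor of activated T cells and natural killer cells, and are classically induced through interferon-activated factors, with NF-κB adding to the induction of *Cxcl10*. *Cxcl12* encodes the ligand of Cxcr4 and of the scavenging receptor Ackr3, is made by stromal cells without stimulation, and retains blood progenitors in their niches. *Cxcl14* encodes an epithelial and stromal chemokine. *Cxcl16* and *Cx3cl1* (fractalkine) encode proteins anchored in the cell membrane, which bind Cxcr6 and Cx3cr1 and can be released by Adam10 and Adam17.

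The sequences before the start sites are shown for the 4 genes whose values carry the results below. RefSeq promoters (assembly GRCm38.p6) were matched for 5 of the 7 genes, and the 250 bases upstream of the start were searched on both strands for 5 motifs. These were the κB consensus by its name, the interferon-stimulated response element (ISRE, GAAANNGAAA), the AP-1 site (TGANTCA), the GC box (GGGCGG) and the TATA box (TATAAA). Matches are in capitals, and each sequence reads 5′ to 3′ on the strand of its gene. *Cxcl10* lies at chr5:92348890-92349139 (minus strand), *Cxcl9* at chr5:92328080-92328329 (minus strand), *Cxcl12* at chr6:117168285-117168534 (plus strand) and *Cx3cl1* at chr8:94771930-94772179 (plus strand).
Cxcl10: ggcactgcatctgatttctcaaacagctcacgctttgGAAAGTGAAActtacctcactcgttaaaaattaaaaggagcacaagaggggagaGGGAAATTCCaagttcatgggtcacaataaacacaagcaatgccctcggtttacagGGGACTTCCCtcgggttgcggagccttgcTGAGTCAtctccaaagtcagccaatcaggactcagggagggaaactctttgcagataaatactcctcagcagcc
Cxcl9: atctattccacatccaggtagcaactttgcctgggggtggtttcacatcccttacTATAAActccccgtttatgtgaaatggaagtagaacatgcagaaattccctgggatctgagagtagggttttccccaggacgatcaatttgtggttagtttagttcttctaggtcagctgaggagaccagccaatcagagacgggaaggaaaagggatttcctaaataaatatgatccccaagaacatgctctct
Cxcl12: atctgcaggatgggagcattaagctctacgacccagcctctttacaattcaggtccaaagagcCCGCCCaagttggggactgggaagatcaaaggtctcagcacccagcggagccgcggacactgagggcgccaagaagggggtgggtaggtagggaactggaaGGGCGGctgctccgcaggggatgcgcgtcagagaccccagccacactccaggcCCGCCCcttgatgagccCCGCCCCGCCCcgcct
Cx3cl1: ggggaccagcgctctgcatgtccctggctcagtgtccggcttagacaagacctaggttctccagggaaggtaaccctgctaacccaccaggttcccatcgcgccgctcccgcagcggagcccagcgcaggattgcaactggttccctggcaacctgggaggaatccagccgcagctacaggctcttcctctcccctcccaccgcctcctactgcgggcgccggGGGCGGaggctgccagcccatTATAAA

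The window of *Cxcl10* held 2 matches to the κB consensus, 159 to 150 and 103 to 94 bases before the start, with an ISRE match at 213 to 204 bases and an AP-1 match at 74 to 68 bases. Of 32851 windows of that length, 3.9% held a κB match, 2.98% an ISRE match and 6.75% an AP-1 match. The *Cxcl12* window held 5 GC boxes, the last 2 sharing 1 base, and its GC content was 64.4%. The *Cx3cl1* window held 1 GC box and, over the 6 bases before the start, 1 TATA box. GC boxes were found in 32.7% of windows and TATA boxes in 12.4%. The *Cxcl9* window held only a TATA box, at 195 to 190 bases, with a GC content of 44.4%, and the *Cxcl14* window held only an ISRE match. A match describes the letters of a window and says nothing of a factor bound there.

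**Figure D1:**
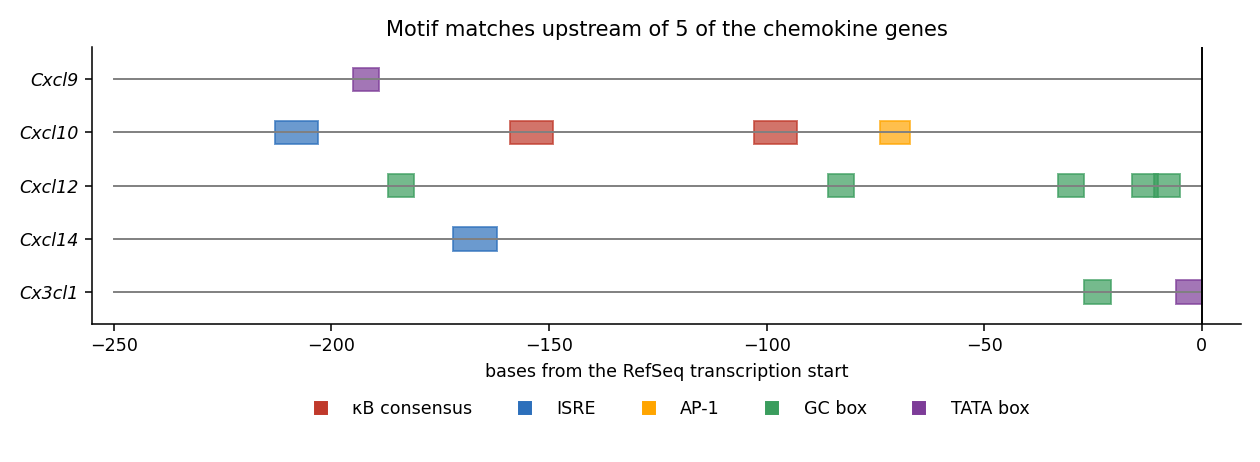
Motif matches in the 250 bases upstream of the RefSeq start of 5 chemokine genes; the horizontal axis is the distance from the start in bases, and each coloured box is 1 match on either strand. *Cxcl10* carries the 2 κB matches and *Cxcl12* the 5 GC boxes.

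The targeted gene and the cells were checked first. *Med17* had log2 signals of 6.35, 6.22 and 6.17 on the knock-down arrays, against 7.98, 7.93 and 7.77 on the stimulated wild-type arrays and 8.10, 8.09 and 7.89 on the unstimulated ones. The difference between knock-down and wild type with TNF-α was -1.64, which leaves 32.0% of the signal (adjusted p = 4.8e-05, limma; exact permutation p = 0.1, two-sided, the smallest that 3 against 3 arrays allow). Array signals were not converted to amounts of mRNA here. The paper reports a stronger reduction of the mRNA by quantitative PCR, and no protein detected by western blotting. All 8 fibroblast markers examined lay above the median probe set mean of 5.02, but 2 of them differed in the knock-down line with TNF-α, *Thy1* by 2.09 and *Pdgfra* by -1.89 (adjusted p = 0.00048 and 9.5e-05). There, 3.36% of all probe sets were called higher and 2.6% lower. Of 16 markers of leukocytes, endothelium and epithelium, only *Cd68* lay above that median. None of the 16 was called in any comparison, which is near the shares of all probe sets (at most 4.62% in either direction). The summed log2 signal of the 7 macrophage and leukocyte markers was 25.6 to 26.2 on knock-down arrays, 26.1 to 26.5 on stimulated wild-type arrays and 25.6 to 26.2 on unstimulated arrays. Array medians lay between 4.47 and 4.59, and arrays correlated at 0.985 to 0.992 within groups and at 0.981 to 0.992 between them.

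In wild-type cells, *Cxcl10* rose after TNF-α, the single gene among the 7 to pass the test (adjusted p under 0.05 over 23410 probe sets), and none passed as lower. Over all probe sets tested, 0.111% were called higher and 0.00427% lower. Without adjustment, 5 of the 7 had a p under 0.05 as higher and 0 as lower, where 3.52% of all probe sets were higher and 3.58% lower, and the median difference of the 7 was 0.60, against -0.02 over all probe sets. With TNF-α present, *Cxcl9*, *Cxcl10* and *Cxcl12* fell in knock-down cells relative to wild type, 3 of 7, where 2.6% of all probe sets were called lower (8.09% without adjustment). This count became 1 or 2 with any array left out, and 1 with all deposited probe sets or only the 6 arrays compared. *Cxcl12* was called each time. None of the 7 was called higher, where 3.36% of all probe sets were, and none had an unadjusted p under 0.05 as higher, where 9.34% did. With so few genes, 0 of 7 is near both shares, and the median difference was -0.29 against -0.02. Stimulated knock-down cells set against unstimulated wild-type cells had 2 of the 7 higher (*Cxcl10* and *Cx3cl1*) and 1 lower (*Cxcl12*), where 3.64% of probe sets were called higher and 4.62% lower (9.15% and 11.4% without adjustment). The 3 comparisons share arrays. In these bulk samples, fewer cells expressing a gene and less RNA per cell cannot be told apart.

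**Figure D2:**
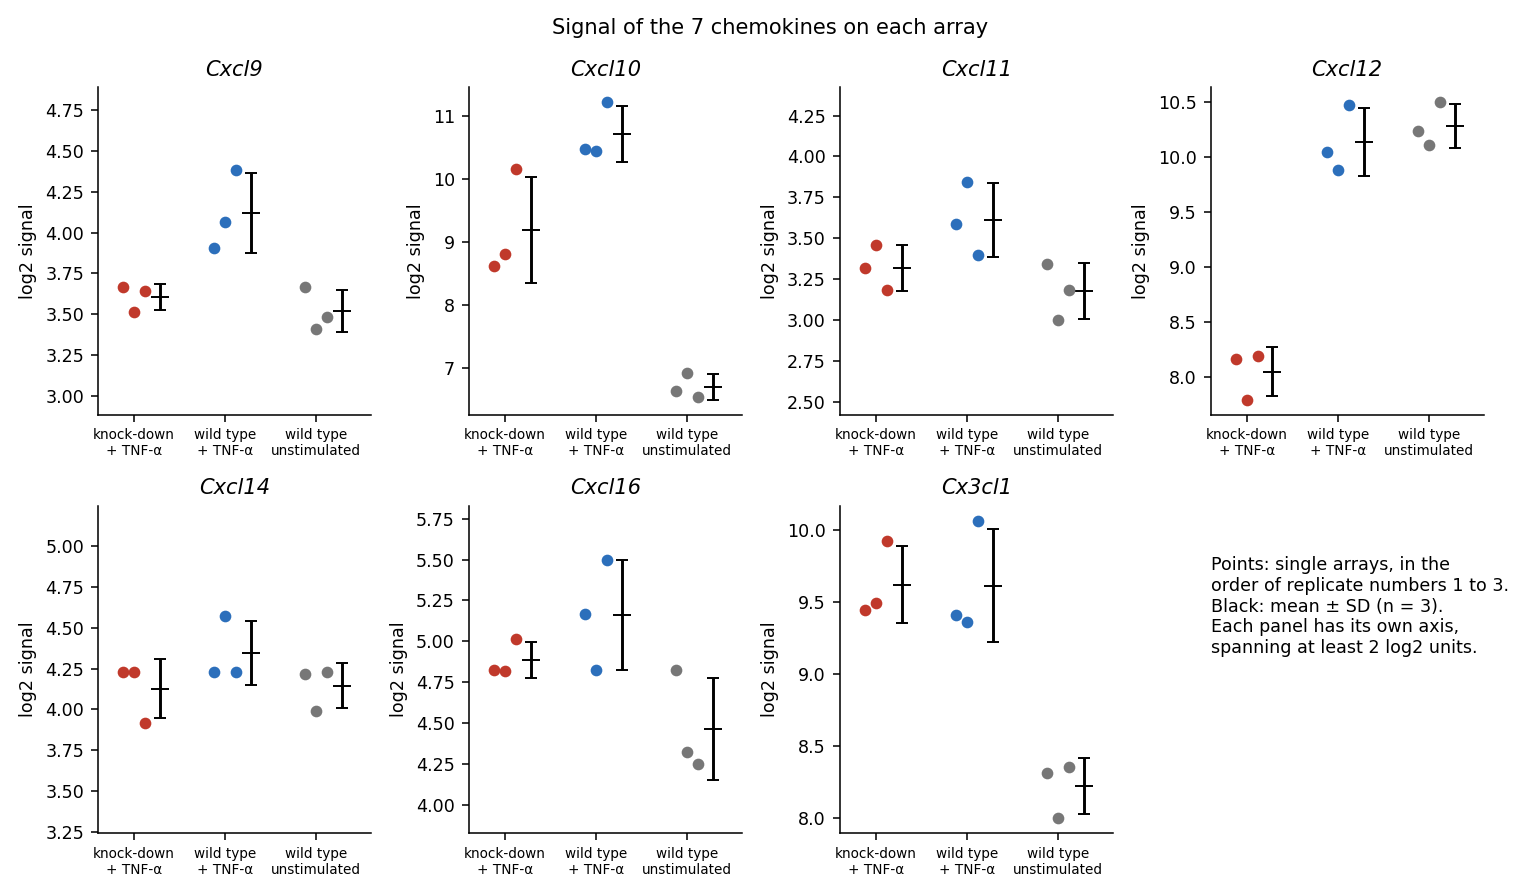
Log2 signal of the 7 chemokines on each of the 9 arrays, with knock-down plus TNF-α left, wild type plus TNF-α in the middle and unstimulated wild type right; points are arrays, black bars the mean ± SD (n = 3), and each panel has its own axis. *Cxcl10* shows 3 separate levels, *Cxcl12* is low on the 3 knock-down arrays alone, and *Cx3cl1* is low on the 3 unstimulated arrays alone.

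*Cxcl10* had log2 signals of 8.61, 8.80 and 10.16 in stimulated knock-down cells, against 10.49, 10.45 and 11.23 in stimulated wild-type cells and 6.63, 6.92 and 6.53 in unstimulated wild-type cells. The 3 groups did not overlap, and the knock-down lay between the others. The narrowest gap was 0.29, between knock-down array 3 and stimulated wild-type array 2. TNF-α raised *Cxcl10* in wild-type cells by 4.02 (SE 0.38, 95% interval 3.18 to 4.87, adjusted p = 0.0049), or 16.3-fold. With TNF-α, the knock-down differed from wild type by -1.53 on the log2 scale (SE 0.38, 95% interval -2.37 to -0.68, adjusted p = 0.047), which leaves 34.7% of the wild-type signal. It was still 5.65-fold above unstimulated wild type (2.50, SE 0.38, adjusted p = 0.0039).

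The decrease of *Cxcl10* in the knock-down stood close to the threshold. Array 3 gave the highest value in both stimulated groups, and within replicate numbers 1, 2 and 3 the log2 difference of knock-down and wild type was -1.87, -1.65 and -1.06. With any array left out except knock-down array 3, the adjusted p became 0.063 to 0.16, with differences of -1.66 to -1.24. Without knock-down array 3, the difference was -2.01 and the adjusted p 0.0046.

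*Cxcl9* had low signals throughout, at a mean of 3.75 within the range of means of the 5 endothelial markers (3.25 to 4.53), and was not shown to be above background. The signals were 3.67, 3.52 and 3.64 in stimulated knock-down cells, against 3.90, 4.06 and 4.38 in stimulated wild-type cells and 3.67, 3.41 and 3.49 in unstimulated wild-type cells. Stimulated wild-type arrays stood above the other 6, which overlapped. The knock-down was lower than stimulated wild type by -0.51 (SE 0.12, 95% interval -0.79 to -0.23, adjusted p = 0.045). This call was lost without any array but stimulated wild-type array 1, with adjusted p values of 0.058 to 0.15. The difference of 0.60 after TNF-α in wild type (SE 0.12, 95% interval 0.32 to 0.87) did not pass the test over all probe sets (adjusted p = 0.23). Stimulated knock-down and unstimulated wild type differed by 0.09 (95% interval -0.19 to 0.37).

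*Cxcl11*, annotated as a transcribed pseudogene in that assembly, had signals of 3.32, 3.46 and 3.18 in stimulated knock-down cells, against 3.59, 3.85 and 3.40 in stimulated wild-type cells and 3.34, 3.00 and 3.19 in unstimulated wild-type cells. The wild-type groups did not overlap, with a gap of 0.05, whereas the knock-down overlapped both. No difference passed the test: 0.43 after TNF-α (SE 0.13, adjusted p = 0.60), -0.29 in the knock-down with TNF-α (SE 0.13, adjusted p = 0.30) and 0.14 against unstimulated wild type (adjusted p = 0.61). On chromosome 5, *Cxcl9* and *Cxcl10* are separated by *Art3* alone in RefSeq's order of protein-coding genes. *Art3*, which encodes an ADP-ribosyltransferase, differed by 0.01 or less between the stimulated groups, at a mean signal of 2.39.

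*Cxcl12* was the member with the largest decrease in the knock-down. Its log2 signals were 8.17, 7.80 and 8.19 in stimulated knock-down cells, against 10.05, 9.88 and 10.47 in stimulated wild-type cells and 10.23, 10.11 and 10.50 in unstimulated wild-type cells. A gap of 1.68 separated the knock-down from the stimulated wild-type arrays, while the 2 wild-type groups overlapped. The knock-down difference with TNF-α was -2.08 (SE 0.17, 95% interval -2.47 to -1.69, adjusted p = 0.00036), which leaves 23.7% of the signal, and it was -1.88, -2.08 and -2.28 within the 3 replicate numbers. With each array left out in turn it stayed between -2.21 and -1.91, with adjusted p values of 0.00063 to 0.0032. Against unstimulated wild type the difference was -2.23 (SE 0.17, adjusted p = 0.0002). TNF-α itself gave -0.15 in wild-type cells (SE 0.17, 95% interval -0.54 to 0.24, adjusted p = 0.86), so a decrease of more than 0.54 lay outside the interval. The fibroblast markers *Pdgfra* and *Thy1* also differed in the knock-down, by -1.89 and 2.09. The 8 fibroblast markers summed to 82.0 to 84.3 on knock-down, 82.6 to 84.8 on stimulated wild-type and 82.5 to 84.9 on unstimulated arrays. Differences of opposite sign offset each other in these sums, so they do not show that the markers were alike. The part of these markers in the *Cxcl12* difference was not tested.

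*Cxcl14* had signals of 4.23, 4.23 and 3.92 in stimulated knock-down cells, against 4.23, 4.57 and 4.23 in stimulated wild-type cells and 4.22, 3.99 and 4.23 in unstimulated wild-type cells. The 3 groups overlapped, and 5 of the 9 arrays carried the identical value. The knock-down difference with TNF-α was -0.22 (95% interval -0.50 to 0.07, adjusted p = 0.44) and that after TNF-α in wild type 0.20 (95% interval -0.09 to 0.49, adjusted p = 0.75).

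Of the 2 membrane-anchored chemokines, *Cx3cl1* had log2 signals of 9.44, 9.49 and 9.92 in stimulated knock-down cells, against 9.41, 9.36 and 10.06 in stimulated wild-type cells and 8.32, 8.00 and 8.35 in unstimulated wild-type cells. Every stimulated array stood at least 1.01 above every unstimulated one, and the stimulated groups overlapped. The difference after TNF-α in wild type was 1.39 (SE 0.20, 95% interval 0.93 to 1.85), or 2.62-fold, with an adjusted p of 0.054. With the replicate number as a block the adjusted p was 0.0036. It was 0.15 with all deposited probe sets and 0.28 with only the 6 arrays compared. With each array left out in turn it lay between 0.066 and 0.25. Knock-down and wild type differed by 0.01 with TNF-α (SE 0.20, 95% interval -0.45 to 0.47, adjusted p = 0.99). A decrease like that of *Cxcl10* or *Cxcl12* lay outside this interval. Stimulated knock-down cells had 1.40 more than unstimulated wild-type cells (SE 0.20, adjusted p = 0.0033). *Cx3cl1* lies on chromosome 8 between *Ccl22* and *Ccl17*, 2 CC chemokine genes. With TNF-α, *Ccl17* was higher in knock-down cells by 0.53 (adjusted p = 0.022; 0.084 at most with an array left out), and *Ccl22* differed by -0.11.

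*Cxcl16* had signals of 4.82, 4.82 and 5.01 in stimulated knock-down cells, against 5.17, 4.82 and 5.50 in stimulated wild-type cells and 4.82, 4.32 and 4.25 in unstimulated wild-type cells. The lowest stimulated and the highest unstimulated wild-type arrays were nearly equal. The difference after TNF-α was 0.70 (SE 0.19, 95% interval 0.27 to 1.12, adjusted p = 0.51), that of the knock-down with TNF-α -0.28 (SE 0.19, 95% interval -0.70 to 0.15, adjusted p = 0.52), and that against unstimulated wild type 0.42 (95% interval -0.01 to 0.84, adjusted p = 0.25). None passed the test. *Cxcl9*, *Cxcl11*, *Cxcl14* and *Cxcl16* had means below the median probe set mean of 5.02.

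**Figure D3:**
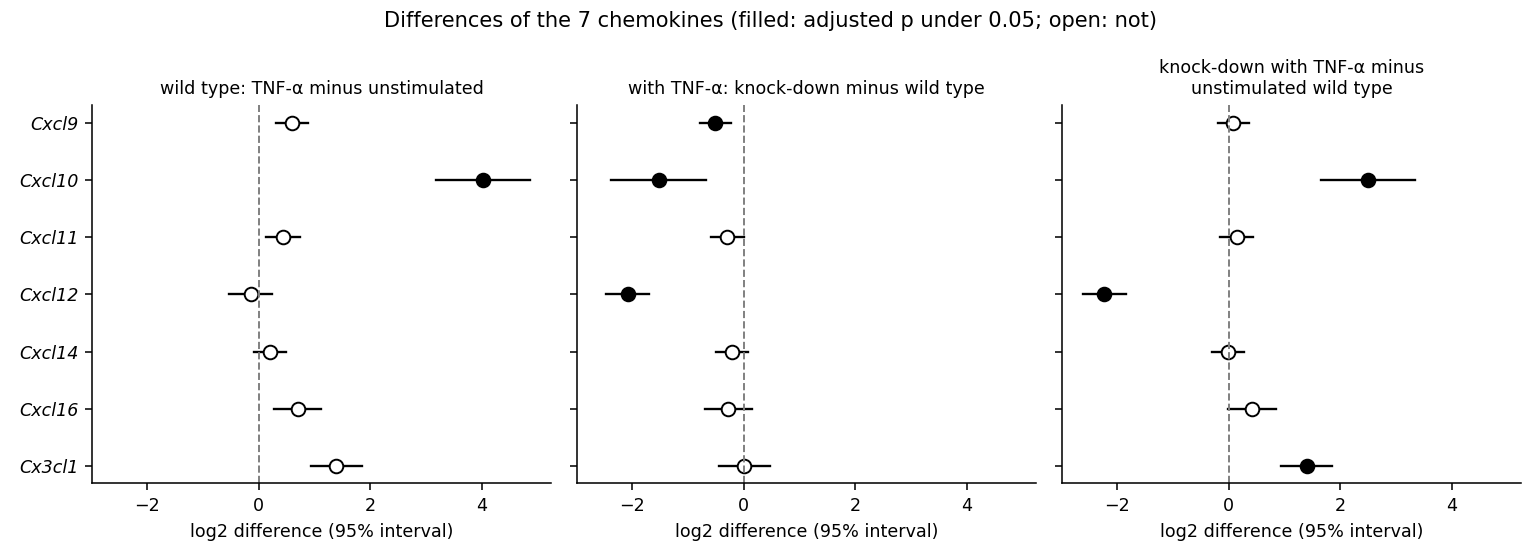
Log2 differences of the 7 chemokines (horizontal axis) with 95% intervals, from the limma model of 9 arrays, in the 3 comparisons; filled points have an adjusted p under 0.05. With TNF-α, *Cxcl12* (-2.08) and *Cxcl10* (-1.53) lie to the left of 0 in the knock-down and *Cx3cl1* (0.01) on it.

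The receptors gave little signal in these fibroblasts. All 5 were measured, and all had means below the median probe set mean (2.65 to 4.49). None was called in any comparison, which for so few genes is near the shares of all probe sets (at most 4.62% in either direction). At an unadjusted p under 0.05, only 1 differed, lower in stimulated knock-down cells than in unstimulated wild type, where 11.4% of all probe sets were lower. *Cxcr3*, the receptor of the interferon-induced ligands, had 3.88, 3.74 and 3.90 in stimulated knock-down cells, against 4.21, 3.90 and 3.90 in stimulated wild-type cells and 3.99, 3.78 and 3.89 in unstimulated cells. *Cxcr4*, through which Cxcl12 signals, had 3.81, 3.66 and 3.31 in stimulated knock-down cells, against 3.67, 3.66 and 3.24 in stimulated wild-type cells and 3.58, 3.66 and 3.91 in unstimulated cells. *Ackr3* had the identical value of 3.50 on 7 of the 9 arrays. *Cxcr6* ranged between 2.46 and 2.95 and *Cx3cr1* between 4.30 and 4.80 over the 9 arrays.

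Of 4 proteases that release or trim these chemokines, none was called in any comparison. With so few genes this is near the shares of all probe sets, of which at most 4.62% were called in either direction of any comparison. *Mmp2*, a gelatinase able to cleave Cxcl12, had 10.07, 9.88 and 10.13 in stimulated knock-down cells, against 10.49, 10.34 and 10.86 in stimulated wild-type cells and 10.56, 10.42 and 11.06 in unstimulated cells. The knock-down arrays lay below the wild-type ones, with a difference of -0.54 with TNF-α (adjusted p = 0.14, and 0.011 with the replicate block). *Adam10* and *Adam17*, which release Cx3cl1 and Cxcl16, differed by 0.26 and 0.13 in the knock-down with TNF-α (adjusted p = 0.22 and 0.44), and *Dpp4*, which trims the Cxcr3 ligands and Cxcl12, by -0.03.

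Among regulators of these genes, *Irf1*, an interferon regulatory factor that TNF-α can induce, had signals of 9.88, 9.96 and 10.72 in stimulated knock-down cells, against 10.21, 10.06 and 11.03 in stimulated wild-type cells and 7.82, 7.72 and 8.38 in unstimulated cells. The stimulated groups overlapped, and array 3 was the highest of each group. *Irf1* rose by 2.46 after TNF-α in wild type (SE 0.30, adjusted p = 0.022; 0.16 at most with an array left out, and under the threshold only without knock-down array 3). The knock-down difference with TNF-α was -0.25 (adjusted p = 0.76). A second, dimmer probe set of *Irf1* gave 0.52 (adjusted p = 0.12) and -0.37 (adjusted p = 0.044).

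Among 14 measured genes of interferon signalling, *Irf1* alone was called after TNF-α, where 0.111% of all probe sets were called higher. In the knock-down with TNF-α, 2.6% of all probe sets were called lower. With TNF-α, 2 of the 14 fell in the knock-down, *Irf9*, which completes the factor that binds the ISRE, by a difference of -0.98 (SE 0.21, adjusted p = 0.026), and *Ifnar1*, a chain of the type I interferon receptor, by -0.80 (SE 0.19, adjusted p = 0.037). *Irf9* had 5.58, 5.22 and 5.18 in stimulated knock-down cells, against 6.14, 6.14 and 6.63 in stimulated wild-type cells. *Ifnar1* had 7.23, 7.36 and 7.63 in stimulated knock-down cells, against 8.02, 7.97 and 8.63 in stimulated wild-type cells. With an array left out, the adjusted p reached 0.10 for *Irf9* (lost without each stimulated wild-type array and knock-down arrays 2 and 3) and 0.13 for *Ifnar1* (lost without every array but unstimulated array 3). Against unstimulated wild type, 3.64% of all probe sets were called higher in stimulated knock-down cells and 4.62% lower. In that comparison, *Irf1* (2.21) and *Ifngr1* (0.71), a chain of the interferon-γ receptor, were higher, and *Irf9* (-1.25) and *Ifnar1* (-0.76) lower. That call was lost for *Ifngr1* without unstimulated array 1 (adjusted p = 0.052) and for *Ifnar1* without 6 of the 9 arrays, up to an adjusted p of 0.13.

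Of 12 measured genes induced by interferon, none was called after TNF-α and 0 had an unadjusted p under 0.05, counts near the shares of all probe sets (0.111% and 3.52% higher), and their median difference was 0.05. With TNF-α, *Tap1*, a subunit of the antigen peptide transporter, fell in the knock-down by a difference of -0.65 (SE 0.12, adjusted p = 0.012, and 0.053 without knock-down array 1). No other of the 12 was called, where 2.6% of all probe sets were called lower and 3.36% higher. At an unadjusted p under 0.05, 3 of the 12 were lower (8.09% of all probe sets). *Tap1* was also lower than in unstimulated wild type, by -0.58 (adjusted p = 0.017, and 0.067 at most with an array left out), where 4.62% of all probe sets were called lower. Without knock-down array 1 or 3 this call was lost.

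Of 4 measured NF-κB subunits, 2 rose after TNF-α in wild type, *Relb* by 0.94 (SE 0.13, adjusted p = 0.048) and *Rel* by 0.72 (SE 0.10, adjusted p = 0.047). Over all probe sets, 0.111% were called higher. Both calls were lost with any 1 of the 9 arrays left out (adjusted p of 0.055 to 0.23), and that of *Rel* with the replicate block (0.06). No subunit was called between knock-down and wild type with TNF-α, at either an adjusted or an unadjusted p under 0.05. Against unstimulated wild type, *Relb* (0.71), *Rel* (0.79) and *Nfkb2* (0.66) were higher in stimulated knock-down cells, where 3.64% of all probe sets were called higher. The call of *Relb* was lost without unstimulated array 1 (adjusted p = 0.051), and that of *Nfkb2* without unstimulated array 1 or 2 or knock-down array 3 (0.076 at most).

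The other chemokines of the array were counted for comparison. Over all probe sets, 0.111% were called higher after TNF-α. In the knock-down with TNF-α 3.36% were called higher and 2.6% lower, and against unstimulated wild type 3.64% and 4.62%. After TNF-α in wild type, 2 of 6 ELR CXC chemokines (those with the motif that attracts neutrophils) and 3 of 19 CC chemokines rose, with median differences of 0.52 and 0.13 against 0.60 for the 7 genes described here. In the knock-down with TNF-α, 2 of the 6 fell and none rose, and of the 19 CC chemokines 2 fell and 1 rose. The median differences were -0.19 and -0.05, against -0.29 for the 7. Stimulated knock-down cells had 2 of the 6 higher and 1 lower than unstimulated wild-type cells, and 4 of the 19 higher. With an array left out, the calls after TNF-α were 1 to 2 and 2 to 3, and in the knock-down 1 to 2 of the 6 and 0 to 2 of the 19 were lower.

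**Figure D4:**
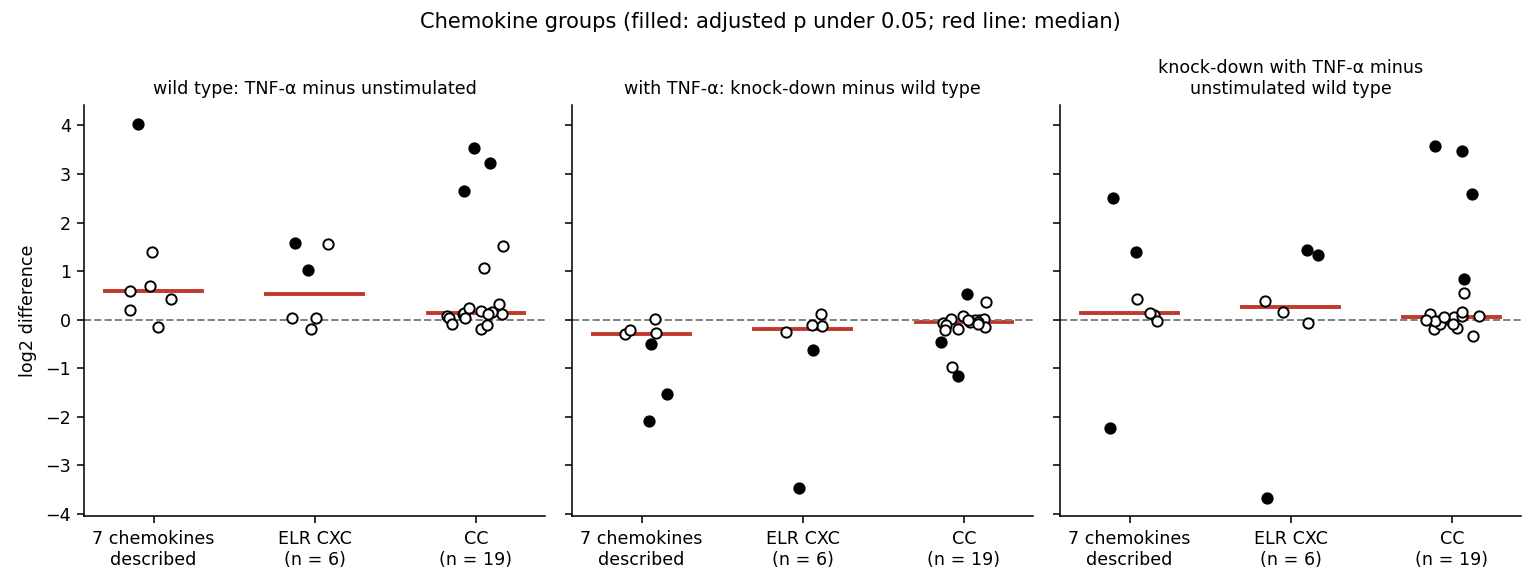
Log2 differences (vertical axis) of the 7 chemokines described, 6 ELR CXC and 19 CC chemokines in the 3 comparisons; each point is a gene, filled where the adjusted p was under 0.05, and the red line is the median. In the knock-down with TNF-α the medians are -0.29, -0.19 and -0.05.

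For the 3 members with differences above a log2 unit, the genes with the most similar profile over the 9 arrays were listed, by the root mean square difference after each was centred on its own mean, among 19937 genes. This orders genes by their values in the same arrays and has no test. The profiles were not scaled, so a gene with larger differences tends to lie further from all others. For *Cxcl12*, the nearest were *Capn6* (0.18), *Dcn*, the matrix proteoglycan decorin (0.20), *Ldhb* (0.20), *Chrdl1*, a BMP antagonist (0.20), and *Ntrk3*, a neurotrophin receptor (0.21). Their differences in the knock-down with TNF-α lay between -2.27 and -1.74, and those after TNF-α in wild type between -0.18 and 0.11. For *Cx3cl1*, the nearest were *Vcam1*, an adhesion molecule (0.12), *Cxcl2* (0.17), *Birc3*, an inhibitor of apoptosis (0.17), *Stx11* (0.17) and *Egr1* (0.19). *Vcam1* differed by 1.35 after TNF-α in wild type and by 0.16 between the stimulated groups. *Cxcl10* had no neighbour as near: *Tnfaip3*, an inhibitor of NF-κB signalling (0.51), *Ccl20* (0.67), *Ch25h*, cholesterol 25-hydroxylase (0.74), *Irf1* (0.75) and *Ccl7* (0.76). The knock-down difference with TNF-α was -1.13 for *Tnfaip3* and -2.57 for *Ch25h*, but -0.04 for *Ccl20* and -0.07 for *Ccl7*.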

How the data were processed

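Total RNA from 9 samples of 3T3 cells was hybridised to Affymetrix Mouse Gene 1.0 ST arrays. The authors deposited log2 signals per probe set after RMA, which corrects background, normalizes between arrays and summarises probes; the sources used here do not give its version. The deposited values were used unchanged. Of 35557 probe sets, 21789 had 1 gene symbol, 1621 several and 12147 none in the platform annotation; the 23410 with a gene were tested, and a gene with several probe sets was represented by the brightest. Listed genes that matched no probe set of their own are not analysed here.

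Differences were estimated with lmFit and eBayes (limma 3.58.1 in R 4.3.3) over the 9 arrays at once, with Benjamini-Hochberg adjustment over the 23410 probe sets and a threshold of 0.05. It was tested on simulated data. Precision is limited by the 3 arrays of a group. The methods describe independent samples, but p-values measure only the spread between these arrays.

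The groups share replicate numbers. Same-numbered arrays deviated together for the TNF-α response (correlations of 0.298, 0.110 and 0.403) and for the knock-down with TNF-α (0.147, 0.274 and 0.465). Numbers 1 and 2 also correlated with each other (0.249 and 0.099 for the TNF-α response, 0.160 and 0.052 for the knock-down). Number 3 against 1 or 2 gave only negative values (-0.402 to -0.153 and -0.392 to -0.176). Deviations from a group mean cancel within the group, so a positive value of number 3 with itself makes these negative in sum. They are not separate evidence. The same-numbered value was highest for number 3 in both comparisons, while 1 and 2 were not clearly separate pairs. The number was also used as a block, and the sources do not say what it marks. The pairing is less clear between knock-down and unstimulated arrays (0.151, 0.002 and 0.221).

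Named were all members, receptors and proteases, of the other lists the genes called, and the 5 nearest profiles. The neighbouring genes *Art3*, *Ccl17* and *Ccl22*, and *Thy1*, *Pdgfra* and *Cd68* among the markers, were named after their values were seen. The members and lists were chosen with earlier results of these data known. The alternatives tried were array centring, quantile normalization, other sets of probe sets or arrays, the block, another variance model, a filter after the methods and leaving out each array.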

Additional observations from a re-analysis of the deposited data

How the results depend on the processing

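Of 324 differences of the 7 chemokines under alternatives, 298 kept their side of the threshold, 4 gained it and 22 lost it. No difference that passed the threshold in either fit changed sign. The 298 include differences near 0 that changed sign without passing, such as *Cx3cl1* in the knock-down with TNF-α (0.01, and -0.14 to 0.23 with an array left out). The 4 gains were those of *Cx3cl1* after TNF-α, so that 2 members were called higher under quantile normalization, above-median probe sets, the replicate block and a variance model with trend and robust estimation (adjusted p = 0.034, 0.027, 0.0036 and 0.033). A filter after the methods (unadjusted p under 0.1 and an SD of the differences below 0.5 of their mean) passed 4 members as higher. It was applied to the 7 members only, so the share of all probe sets that would pass is not known. The losses were those of *Cxcl9* and *Cxcl10* in the knock-down with TNF-α. *Cxcl9* missed the threshold with arrays centred on their medians (0.085), under quantile normalization (0.076), with all deposited probe sets (0.099) and with the 6 arrays compared (0.092). *Cxcl10* missed it with all deposited probe sets (0.11) and the 6 arrays (0.13), which left 1 member called lower. The methods' filter left *Cxcl10* out at an SD of 0.55 of the mean and passed *Cxcl11*. With each array left out, 1 to 2 members were called lower. *Cxcl12* kept its call throughout. Every member has 1 probe set, so averaging probe sets gave no other value.

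Called probe sets after TNF-α numbered 26 higher and 1 lower. They became 10 and 3 with all deposited probe sets, 9 and 0 with the 6 arrays and 51 and 4 with the replicate block. Probe sets above the median gave 2 lower, and leaving out an array 8 to 22 higher and 0 to 2 lower. For the knock-down with TNF-α, the block gave 952 lower (609 without it), and leaving out an array 424 to 893 higher and 314 to 703 lower. Centring moved the split to 1000 higher of 1454 called (68.8%), against 786 of 1395 (56.3%), and the median of all probe sets to 0.04. Against unstimulated wild type, leaving out an array gave 523 to 841 higher and 624 to 1123 lower. The cause of these changes was not tested.

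With the replicate block, other list genes crossed the threshold, chosen here after their values were seen. They were *Ifngr2* (0.05) and *Nfkb2* (0.012) after TNF-α, and *Ifnar2* (0.032) and *Ifit1* (0.046) in the knock-down. *Cxcl2* (0.0057) was gained and *Cxcl5* (0.051) lost after TNF-α, and *Ccl9* (0.044) was gained as lower in the knock-down. The block changed no other call of a member. Against unstimulated wild type, where the pairing is less clear, the block brought *Mmp2* (0.0039) and *Ifngr2* (0.0033) past the threshold.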

Other observations

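Many deposited values repeat exactly between arrays. Of the tested probe sets, 58.9% had at least 2 arrays at an identical value, 79.1% below the median probe set mean and 38.7% at or above it, and 20.3% had at least 4. Among the chemokines described, *Cxcl14* had 5 arrays at an identical value, and *Cxcl9* and *Cxcl16* had 2 each. The part of these repeats in the small differences of these genes was not tested.

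Array 3 gave the highest signal of *Cxcl10*, *Cxcl12*, *Cx3cl1*, *Cxcl16* and *Irf1* in both stimulated groups. Within replicate numbers 1, 2 and 3, the *Cxcl10* difference after TNF-α in wild type was 3.85, 3.53 and 4.70, and that of *Cx3cl1* was 1.09, 1.36 and 1.71. Between the stimulated groups, *Cx3cl1* differed by 0.03, 0.13 and -0.14 within the same numbers, and *Cxcl11* by -0.27, -0.39 and -0.21. *Cxcl16* differed by -0.35, -0.0041 and -0.48, the second a difference of practically 0.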
